A study of Mus musculus with 48 samples.

Results

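The EYA-, SIX- and DACH-family genes other than Eya3 were followed in the mouse pars tuberalis, the thin layer of pituitary tissue around the stalk that carries melatonin receptors and makes thyrotropin under long days. The set is defined by gene name. It holds 10 genes of the 18194 represented on the array: the co-activators Eya1, Eya2 and Eya4, the homeobox factors Six2, Six3, Six4, Six5 and Six6, and the co-regulators Dach1 and Dach2. All 10 had at least 1 probe set that carries a single gene symbol, 23 probe sets in all, and each gene was read from the one with the highest mean over the arrays. No filter on dim values was used, so every member entered every test.

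Expression was measured on 48 Affymetrix arrays, each hybridised with RNA pooled from 25 male CBA/N mice, whose pars tuberalis was punched with a 0.5 mm needle out of slices 0.5 mm thick. All mice had first spent 3 weeks under short days of 8 h light and 16 h dark. The long-day mice then had 2 weeks of 16 h light and 8 h dark and were 8 weeks old. The advance and delay mice were 6 weeks old and were killed during their first long day, made by light starting 8 h early (advance) or by darkness starting 8 h late (delay). The short-day mice stayed under 8 h of light and were 8 weeks old. Each condition was sampled at 6 times, 4 h apart, with 2 arrays per time and so 12 per condition, and ZT counts hours from lights-on, in advance and delay from that of the earlier short-day cycle. Advance arrays at ZT16 and delay arrays at ZT0, ZT4 and ZT8 were labelled ahead of any extra light. These 8 arrays are called the first-day arrays ahead of the light. A group is a punch of pooled tissue, so fewer cells of a type and less RNA per cell cannot be told apart.

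EYA proteins carry a phosphatase domain and a transactivating domain and have no DNA-binding domain of their own. They are brought to DNA by SIX-family homeobox proteins, while DACH proteins act in the same network, mostly as co-repressors. The network is known from the fly eye, where eyes absent, sine oculis and dachshund work together, and from the placodes, kidney and muscle of vertebrates. In the pars tuberalis the best known member is Eya3, a co-activator of Tshb under long days that acts together with TEF. Six3 and Six6 are placed early in the development of the anterior head, eye, hypothalamus and pituitary, and they work largely as repressors together with TLE co-repressors. Eya1 and Six4 act together in the development of sensory organs, kidney and muscle.

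The tissue was checked on its own markers. Tshb, the thyrotropin beta subunit, averaged 14.09 ± 0.20 under long days, 12.51 ± 0.60 in advance, 12.01 ± 0.45 in delay and 10.54 ± 0.47 under short days (log2 RMA value, SD, n = 12 each). Cga, its alpha partner, averaged between 13.58 and 14.17 in the 4 conditions. Pars distalis hormones were present as well: 6 arrays, 3 of long days and 1 of each other condition, had Gh or Prl above a log2 value of 10. The signal ratio of the 3' to the 5' actin probe set, a measure of RNA integrity, averaged 1.65 ± 0.12 on the log2 scale under long days, 1.69 ± 0.09 in advance, 1.85 ± 0.13 in delay and 1.89 ± 0.12 under short days (SD, n = 12 each).

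The 2 RefSeq promoter windows below are shown because Six6 and Six4, which lie on the same chromosome and moved in opposite directions between photoperiods, were the only ones of the 8 members with a window to hold a SIX-family recognition site, TCAGGTT. Each runs from 250 bases ahead of the start on which it was built to 50 after it, in GRCm38.p6. The capitals mark the site, which in Six4 is read on the other strand. The Six6 window is chr12:72939632-72939931 on the plus strand and the Six4 window is chr12:73113196-73113495 on the minus strand.
Six6: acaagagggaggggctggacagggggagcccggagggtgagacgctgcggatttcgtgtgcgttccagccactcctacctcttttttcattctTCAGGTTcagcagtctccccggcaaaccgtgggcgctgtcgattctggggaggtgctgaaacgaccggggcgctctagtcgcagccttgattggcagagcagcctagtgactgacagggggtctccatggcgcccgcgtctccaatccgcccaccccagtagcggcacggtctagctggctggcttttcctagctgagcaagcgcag
Six4: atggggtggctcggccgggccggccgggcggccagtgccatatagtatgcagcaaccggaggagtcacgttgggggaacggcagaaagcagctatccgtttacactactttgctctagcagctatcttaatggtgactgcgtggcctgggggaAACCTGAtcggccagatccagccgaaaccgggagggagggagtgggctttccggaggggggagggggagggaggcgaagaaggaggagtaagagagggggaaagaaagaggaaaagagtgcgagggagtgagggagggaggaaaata
The site begins at -157 in Six6 and at -97 in Six4, counted from the start on which each window was built. The Six4 window lies within the annotated gene, chr12:73099609-73114031, so -97 is not counted from the outer end of that gene. A second Six4 window, chr12:73113376-73113675, held no match. Windows were matched for 8 of the 10 members, 11 windows in all. TCAGGTT on either strand was held by 2 of these 11 windows and by 4.07% of all 32851 windows of the same length. Both forms of the D-box searched, TTATGTAA and TTACGTAA, which TEF and its relatives bind, the E-box CACGTG and the cAMP elements TGACGTCA and TGACG were in none of the 11 windows, against 0.938%, 0.119%, 7.15%, 1.79% and 20.8% of all windows. These are matches of letters, both strands searched, and TGACG lies within TGACGTCA.

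The first comparison asks how the genes differ between 2 weeks of long days and continued short days. Under long days 8 of the 10 members passed the test, at an adjusted p below 0.05, against 46.7% of all genes. Of the 8, 3 were higher under long days, Six4, Eya1 and Eya4, against 17.6% of all genes. The other 5, Six6, Six3, Six5, Eya2 and Dach1, were lower, against 29.1% of all genes. The median difference of the 10 members was -0.14 and that of all genes -0.03 (log2). The design text says that the whole procedure was done 2 times, and p-values measure only the spread between those 2 arrays of a group. All tests were limma's, with p-values adjusted by the Benjamini-Hochberg method over 18194 genes, and errors of differences are SE.

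**Figure D1:**
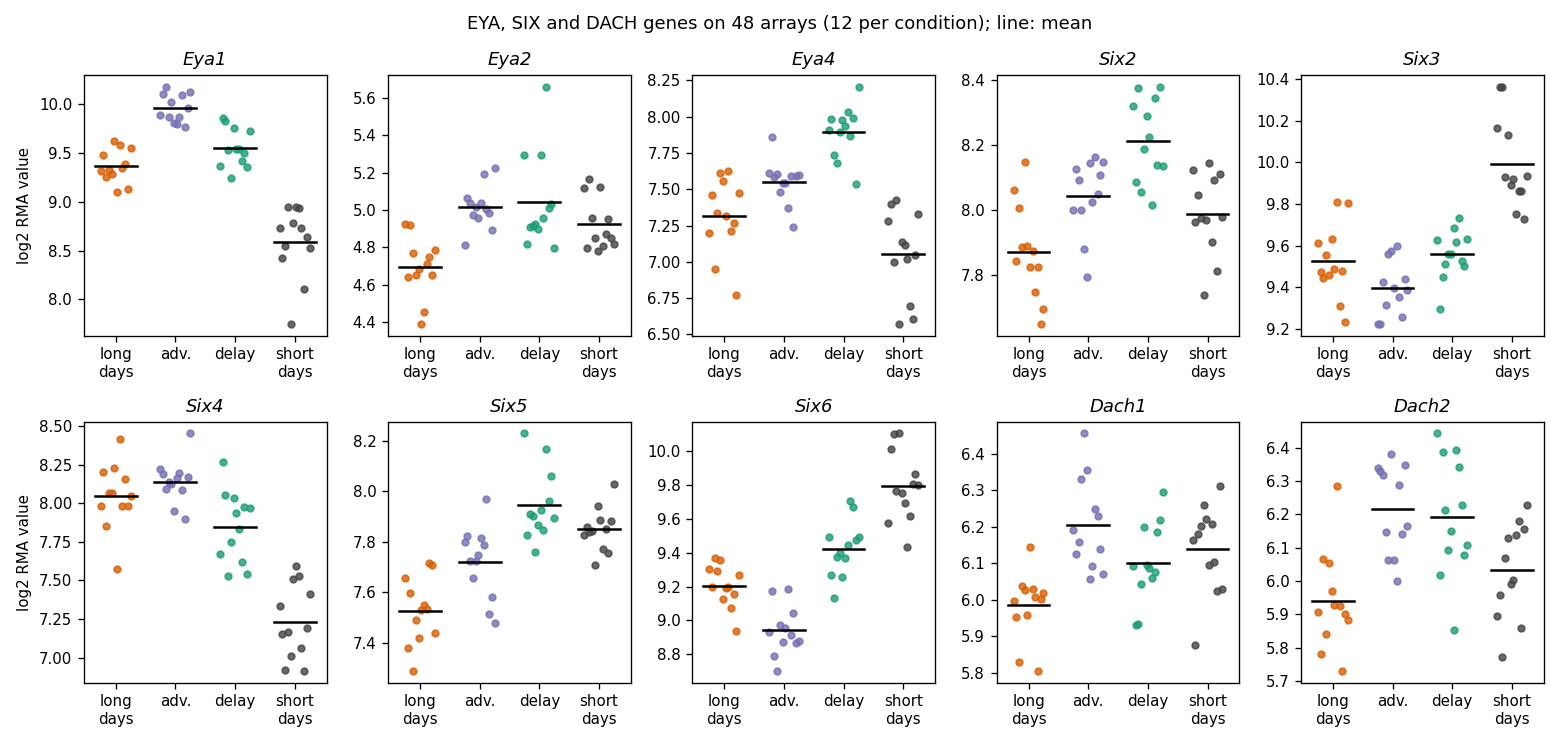
Log2 RMA values of the 10 members on 48 arrays, 12 per condition (long days, advance, delay, short days from left to right), with the mean of each condition as a line. Eya1 and Six4 sit lowest and Six3 and Six6 highest on short-day arrays, while Dach1 and Dach2 overlap among the conditions.

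Eya1, which with SIX-family partners drives branchial and kidney development, had values from 9.10 to 9.62 on long-day arrays (median 9.33), against 7.75 to 8.95 on short-day arrays (median 8.68). All 12 long-day arrays lay above all 12 short-day arrays, as did those of 2.07% of all genes. The difference was 0.77 ± 0.09, a 1.71-fold rise (adjusted p = 2.53e-08), with the same sign at 6 of 6 ZT. With the actin ratio as a covariate, added after seeing the data, it was 0.56 and passed (adjusted p = 0.000757). On advance arrays Eya1 ran from 9.77 to 10.17 and on delay arrays from 9.24 to 9.85, so all 36 arrays of the other 3 conditions lay above every short-day array, as did those of 0.247% of all genes. Every advance array also lay above every long-day array, a position that 0.929% of all genes shared.

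Six4, a SIX-family factor with a long activating tail, had values from 7.57 to 8.41 on long-day arrays (median 8.06), against 6.92 to 7.60 on short-day arrays (median 7.18). The groups met at a single ZT12 long-day array of 7.57, which lay just below the highest short-day array of 7.60. The difference was 0.81 ± 0.08, a 1.76-fold rise (adjusted p = 8.84e-10), positive at 6 of 6 ZT. With the actin ratio as a covariate it was 0.57 and passed (adjusted p = 7.08e-05). On advance arrays Six4 lay between 7.90 and 8.45, above every short-day array (2.24% of all genes), and on delay arrays between 7.53 and 8.27.

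Eya4, known from hearing loss and heart disease in people, had a median of 7.33 on long-day arrays (6.78 to 7.63), against 7.08 on short-day arrays (6.57 to 7.43). The groups overlapped widely. The rise of 0.26 ± 0.08 passed (adjusted p = 0.00567), but the long-day mean was higher at 3 of 6 ZT only. Delay arrays were the highest, from 7.54 to 8.21, and all 12 lay above every short-day array (1.27% of all genes). With the actin ratio as a covariate, added after seeing the data, the long-day rise no longer passed (0.27, adjusted p = 0.0762).

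Six6, the SIX-family factor of the eye, hypothalamus and pituitary, had values from 8.94 to 9.37 on long-day arrays (median 9.20), against 9.43 to 10.10 on short-day arrays (median 9.78). No long-day array reached any short-day array, a position below short days that 3.24% of all genes shared. The gene fell by 0.59 ± 0.06 on the log2 scale (adjusted p = 1.39e-10). With the actin ratio as a covariate the difference was -0.38 and still passed (adjusted p = 8.75e-06). Advance arrays were lower still, from 8.70 to 9.18, while delay arrays, from 9.13 to 9.70, overlapped with both chronic conditions.

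Six3, the close relative of Six6 in the anterior neural plate, had values from 9.23 to 9.81 on long-day arrays (median 9.48), against 9.73 to 10.36 on short-day arrays (median 9.92). The ranges overlapped, with the highest long-day arrays, at ZT12 and ZT20, above the lowest short-day arrays. It fell by 0.47 ± 0.06 (adjusted p = 3.34e-08) and was lower at 6 of 6 ZT. With the actin ratio as a covariate the difference was -0.31 and passed (adjusted p = 0.00123). All 12 advance arrays lay below all short-day arrays, as did those of 5.52% of all genes. The probe set of Six3os1, the RNA that overlaps Six3 in the annotation, differed by -0.11 ± 0.05 and did not pass (adjusted p = 0.093).

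The other falls were smaller. Six5, the SIX-family gene beside the myotonic dystrophy kinase gene, had a median of 7.53 under long days and 7.85 under short days and fell by 0.32 ± 0.05 (adjusted p = 5.87e-06). Eya2, a co-activator that SIX-family factors carry into the nucleus, fell by 0.23 ± 0.07 (adjusted p = 0.00397) and Dach1, a co-repressor, by 0.16 ± 0.04 (adjusted p = 0.00323), all 3 lower at 6 of 6 ZT. Eya2 is a dim probe set: its condition means of 4.69 to 5.04 lie below the first quartile of every array, which is 5.37 at the lowest. Its fall did not pass with the actin ratio as a covariate (-0.11, adjusted p = 0.418). Six2, known for keeping kidney progenitors undifferentiated, averaged 7.87 ± 0.15 under long days and 7.99 ± 0.13 under short days (SD, n = 12 each) and did not pass (-0.12 ± 0.05 SE, adjusted p = 0.0586). Dach2 averaged 5.94 ± 0.15 under long days and 6.03 ± 0.14 under short days (SD, n = 12 each) and did not pass either (adjusted p = 0.238).

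The next comparison asks whether the arrays ahead of the light, still under short days but of 6 weeks of age, equalled the short-day arrays of 8 weeks. They did not: 7 of the 10 members passed between these 8 arrays and the 8 short-day arrays of the same ZT, against 48.8% of all genes. Of the 7, 5 were higher ahead of the light, Eya1, Six4, Eya4, Dach2 and Six2 (21.8% of all genes), and Six3 and Six6 were lower (27% of all genes). Age, set of mice and first-day handling cannot be told apart here, and this comparison shares its short-day arrays with that of long and short days, so that the 2 are given side by side only.

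Eya1 ran from 9.24 to 10.08 on first-day arrays ahead of the light (median 9.76), against 7.75 to 8.95 on the matched short-day arrays (median 8.64). The groups did not overlap (2.83% of all genes lay all above), and the difference was 1.18 ± 0.12, a 2.26-fold rise (adjusted p = 9.01e-10). Long minus short days gave 0.77 over 6 ZT and 0.87 ± 0.12 at the same ZT as here. The other Eya1 probe sets rose less ahead of the light. One gave 0.47 ± 0.14 and passed (adjusted p = 0.00479), and the other gave 0.10 ± 0.07 and did not (adjusted p = 0.251). Six4 differed by 0.78 ± 0.10 (adjusted p = 1.62e-07), with values of 7.53 to 8.27 ahead of the light and 6.92 to 7.51 under short days, which also did not overlap. For Eya4 the rise was 0.74 ± 0.10 (adjusted p = 1.4e-07), beside 0.26 for long minus short days over 6 ZT and 0.31 at the same ZT. Its ranges of 7.24 to 7.98 ahead of the light and 6.57 to 7.43 under short days overlapped. Another Eya4 probe set gave 0.28 ± 0.08 and passed (adjusted p = 0.00348), while those of 0.10 ± 0.07 and 0.06 ± 0.08 did not. Six3 fell by 0.62 ± 0.07 (adjusted p = 1.36e-08), with 9.26 to 9.62 ahead of the light and 9.86 to 10.36 under short days (6.83% of all genes lay all below). Six6 fell by 0.61 ± 0.07 (adjusted p = 9.01e-09), with 8.91 to 9.49 ahead of the light and 9.58 to 10.10 under short days. The ranges of Eya1, Six4, Six3 and Six6 were separate between the arrays labelled ahead of the light and the matched short-day arrays. With the mean of all probe sets of a gene the differences were 0.58 for Eya1, 0.69 for Six4, 0.29 for Eya4 and -0.40 for Six3. All of these passed.

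The 5 genes passed with the same sign in both first-day sets taken apart, where 16.8% of all genes passed for advance and 45.6% for delay. In the 2 advance arrays of ZT16 alone Eya1 differed from short days by 1.51 ± 0.23, Six4 by 1.01 ± 0.20 and Six6 by -0.73 ± 0.14 (adjusted p = 9.21e-05, 0.00132 and 0.000578). In the 6 delay arrays alone the values were 1.06 ± 0.13, 0.70 ± 0.12 and -0.56 ± 0.08 (adjusted p = 1.09e-07, 1.12e-05 and 5.74e-07). Eya2, Six5 and Dach1 did not pass ahead of the light, with differences of 0.03 ± 0.08, 0.04 ± 0.07 and -0.03 ± 0.05. Eya3 averaged 10.05 ± 0.46 under long days and 9.15 ± 0.14 under short days (SD, n = 12 each), and between first-day arrays ahead of the light and short days it differed by -0.05 ± 0.09 (adjusted p = 0.687).

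**Figure D2:**
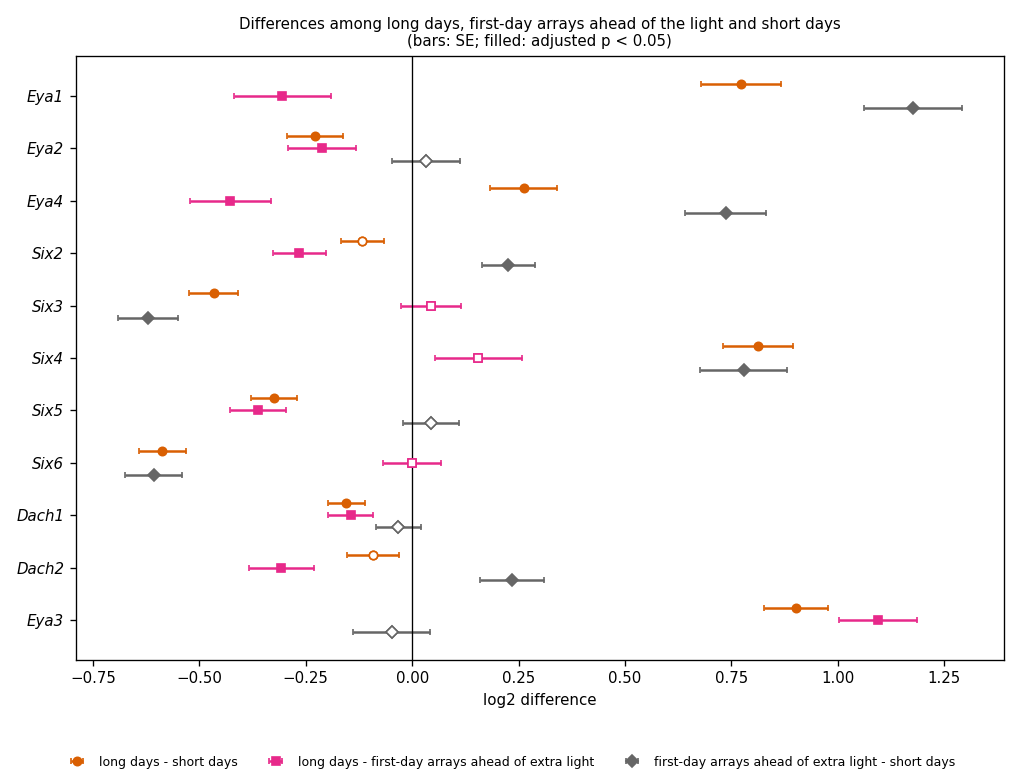
Log2 differences with SE for each member and Eya3: long minus short days, long days minus first-day arrays ahead of the extra light, and those first-day arrays minus short days, filled where the adjusted p was below 0.05. Between long days and the first-day arrays ahead of the light, which differ in age too, Six4 (0.16), Six3 (0.04) and Six6 (-0.0003) did not pass. Eya3 passed there with 1.09.

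Long days were then set against the first-day arrays ahead of the light at the same ZT, a comparison chosen after seeing the data, in which photoperiod, age and set of mice all differ. Of the members 7 passed, against 38.3% of all genes, and all 7 were lower under long days, against 20.5% of all genes. Six5 fell by 0.36 ± 0.07 (adjusted p = 5.85e-05), Eya4 by 0.43 ± 0.10 (adjusted p = 0.000682) and Dach2 by 0.31 ± 0.08 (adjusted p = 0.00174). Eya1, higher under long than short days, here fell by 0.30 ± 0.12 (adjusted p = 0.035), and Six2, Eya2 and Dach1 fell by 0.27, 0.21 and 0.14. Six4 (0.16 ± 0.10), Six3 (0.04 ± 0.07) and Six6 (-0.0003 ± 0.07) did not pass, with adjusted p of 0.23, 0.638 and 0.998. Six5, Eya2 and Dach1 were lower under long days against either set of arrays, but the 2 comparisons share long-day arrays. Against short days at the same ZT, Eya2 did not pass (-0.18 ± 0.08, adjusted p = 0.0712). Eya3 rose by 1.09 ± 0.09 (adjusted p = 7.31e-11).

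The courses over the day ask whether any member follows the clock or the light. No member passed limma's F test over the 6 ZT in any condition. The share of all genes that passed was 1.63% under long days, 2.58% in advance, 1.52% in delay and 8.91% under short days. At an unadjusted p below 0.05 there were 0, 1 (Dach1), 0 and 2 (Eya4 and Six3) members in the same order, against 9.37%, 12.1%, 11.5% and 25.6% of all genes. The course under long days differed from that under short days for no member either, against 4.3% of all genes, with 1 member, Eya4, at an unadjusted p below 0.05 (adjusted p = 0.14), against 16.9% of all genes. Eya3 passed under long days (adjusted p = 0.00155), in advance (adjusted p = 2.3e-09) and in the difference of courses (adjusted p = 0.027).

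**Figure D3:**
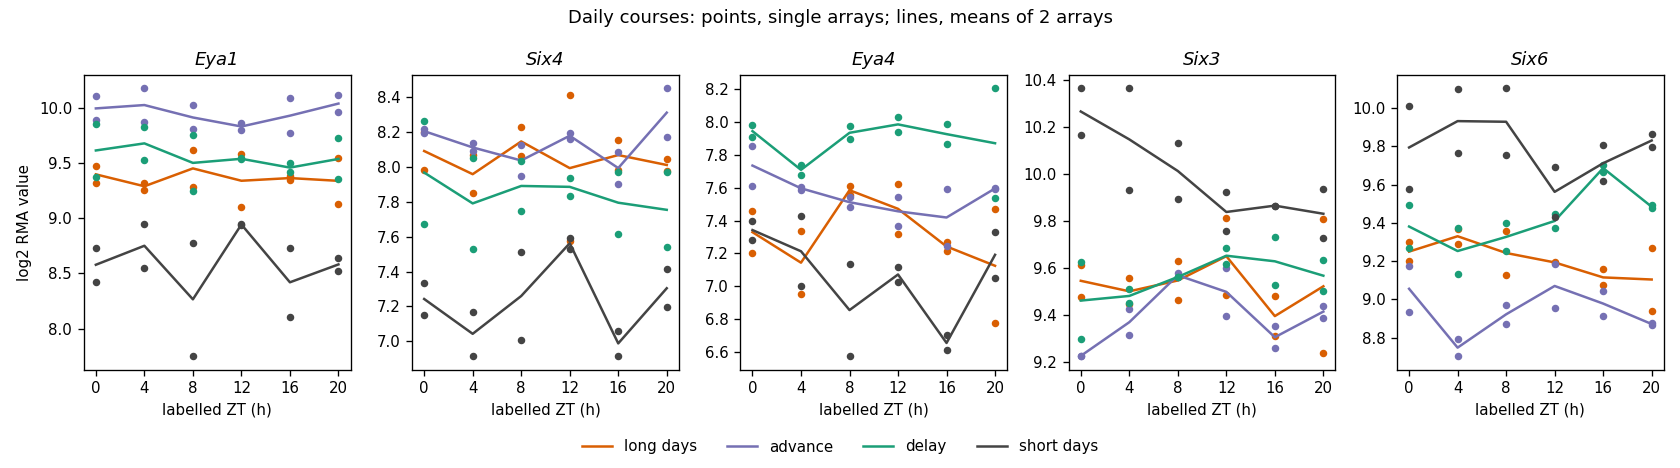
Daily courses of Eya1, Six4, Eya4, Six3 and Six6 by labelled ZT in h, with single arrays as points and means of 2 arrays as lines, in log2 RMA values. The ranges of most pairs of conditions overlap, Eya1 and Six6 are the genes whose long-day and short-day arrays do not, and no member passed the F test for variation over the day in any of them.

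The spread of the 6 ZT means shows how flat the courses were. For Eya1 this spread was 0.16 under long days, 0.21 in advance, 0.22 in delay and 0.68 under short days. There a single ZT8 array of 7.75 lay far below its partner of 8.78. Six3 under short days had its highest mean, 10.26, at ZT0 and its lowest, 9.83, at ZT20. Eya4 under short days had its lowest mean, 6.65, at ZT16 and its highest, 7.34, at ZT0.

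The first long day asks whether any member answers the extra light within hours. For light ahead of dawn, ZT20 less ZT16 of the advance day, less the same step under short days, passed for none of the members, against 0.22% of all genes, and none had an unadjusted p below 0.05, against 6.2%. Eya3 rose by 1.62 ± 0.26 there (adjusted p = 0.000685), while Eya1 differed by -0.05 ± 0.33, Six4 by 0.002 ± 0.29 and Six6 by -0.23 ± 0.19. For the mean of ZT0, ZT4 and ZT8 of the advance day less ZT16, again less the short-day change, 0% of all genes passed (607 genes without 1 short-day array of ZT16, replicate 1), and no member had an unadjusted p below 0.05, against 9.23% of all genes. For light after dusk, ZT12 less ZT8 of the delay day, less the same step under short days, passed for no member, against 0.0385% of all genes, and 1 member, Six6, had an unadjusted p below 0.05 (0.45 ± 0.19, adjusted p = 0.627), against 7.58% of all genes. The difference between the 2 steps passed for no member, against 0.159% of all genes, with Six6 again the one at an unadjusted p below 0.05 (adjusted p = 0.429), against 10.4% of all genes.

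Over the evening of the delay day, ZT12 and ZT16 less ZT0, ZT4 and ZT8, and less the same change under short days, Six6 and Six3 passed, 2 of 10 members, against 6.11% of all genes, and both differences were positive, against 5.16% of all genes. Six6 read 9.37 and 9.45 at ZT12 and 9.70 and 9.67 at ZT16 on delay arrays, after 9.49 and 9.27 at ZT0, 9.13 and 9.37 at ZT4 and 9.40 and 9.26 at ZT8. Under short days it read 9.69 and 9.43 at ZT12 and 9.62 and 9.81 at ZT16, after 9.58 and 10.01 at ZT0, 10.10 and 9.77 at ZT4 and 10.10 and 9.75 at ZT8. The evening mean thus lay above that of the earlier arrays on the delay day and below it under short days. The difference of these changes was 0.48 ± 0.12 (adjusted p = 0.0282).

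Neither change of Six6 passed by itself: 0.23 ± 0.09 in delay (adjusted p = 0.164), where 2.73% of all genes passed, and -0.25 ± 0.09 under short days (adjusted p = 0.0646), where 9.67% did. Six3 gave 0.43 ± 0.13 for the difference (adjusted p = 0.0442), of which 0.14 ± 0.09 was the delay day (adjusted p = 0.441) and -0.29 ± 0.09 the short day (adjusted p = 0.0398). In the same contrast 2 of 6 TLE co-repressors passed, Tle2 (0.45 ± 0.12, adjusted p = 0.0288) and Tle1 (0.44 ± 0.13, adjusted p = 0.0374). So did 2 of 11 neuron markers, Sst (0.63 ± 0.16) and Slc32a1 (0.54 ± 0.15), and 1 of 7 astrocyte markers, Slc1a3 (0.25 ± 0.08), and none of the pars distalis, tanycyte, ependymal and oligodendrocyte markers. The part of other cells in the values of Six3 and Six6 was not tested. Without the 6 arrays with high Gh or Prl the differences were about as large, 0.42 for Six3 and 0.50 for Six6, and did not pass (adjusted p = 0.132 and 0.0881). With the actin ratio as a covariate they were 0.31 for both and did not pass (adjusted p = 0.155 and 0.105).

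**Figure D4:**
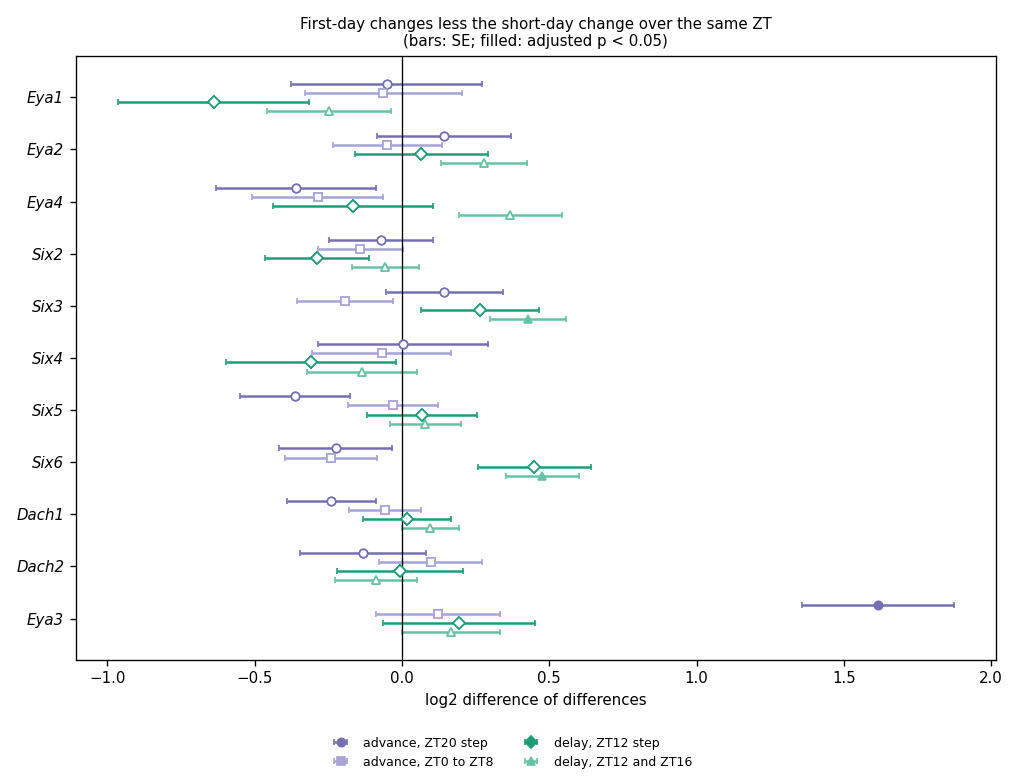
First-day changes less the short-day change over the same ZT (log2, with SE) for each member and Eya3, filled where the adjusted p was below 0.05. Eya3 alone is filled at the advance ZT20 step, with 1.62, and Six3 and Six6 at ZT12 and ZT16 of the delay day, with 0.43 and 0.48.

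Long days were also set against each first-day condition over all 6 ZT, again chosen after seeing the data and across ages. In advance less long days 8 members passed, against 34.6% of all genes: Eya1, Eya2, Eya4, Six2, Six5, Dach1 and Dach2 were higher in advance (18.4% of all genes) and Six6 lower (16.3%; -0.27 ± 0.06). In delay less long days 8 passed as well, against 47.5% of all genes, with Eya2, Eya4, Six2, Six5, Six6, Dach1 and Dach2 higher in delay (29.6%) and Six4 lower (18%; -0.20 ± 0.08, adjusted p = 0.0497). Six5 had values from 7.76 to 8.23 on delay arrays, against 7.29 to 7.72 on long-day arrays. All 12 delay arrays lay above all 12 long-day arrays, as did those of 1.32% of all genes, and the difference was 0.42 ± 0.05 (adjusted p = 1.2e-07).

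Advance and delay mice were of one age and can be compared at ZT0, ZT4 and ZT8, where advance mice had already met their extra light and delay mice had not. Of the members 3 passed, against 8.76% of all genes: Dach1 was higher in advance, against 5.54% of all genes, and Six6 and Six2 were lower, against 3.22%. Six6 had 6 advance values between 8.70 and 9.18, against 6 delay values between 9.13 and 9.49, and fell by 0.41 ± 0.08 (adjusted p = 0.000833). A single advance array overlapped the delay range. On the 2 advance arrays of ZT16, labelled ahead of the light, Six6 read 8.91 and 9.04. The mean of ZT0, ZT4 and ZT8 of the advance day less ZT16 was -0.07 ± 0.11 (adjusted p = 0.968). Dach1 rose by 0.22 ± 0.06 (adjusted p = 0.0213) and Six2 fell by 0.24 ± 0.07 (adjusted p = 0.0342). When each of the 48 arrays was left out in turn, the call of Dach1 was lost for 6 of them and that of Six2 for 9. Dach1 also did not pass with the mean of its probe sets (0.10, adjusted p = 0.208), with the actin ratio as a covariate (adjusted p = 0.0671) or without the 6 arrays with high Gh or Prl (adjusted p = 0.0718), and Six2 did not with the actin ratio (adjusted p = 0.0549). Which light schedule and which set of mice stands behind these differences cannot be told apart.

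**Figure D5:**
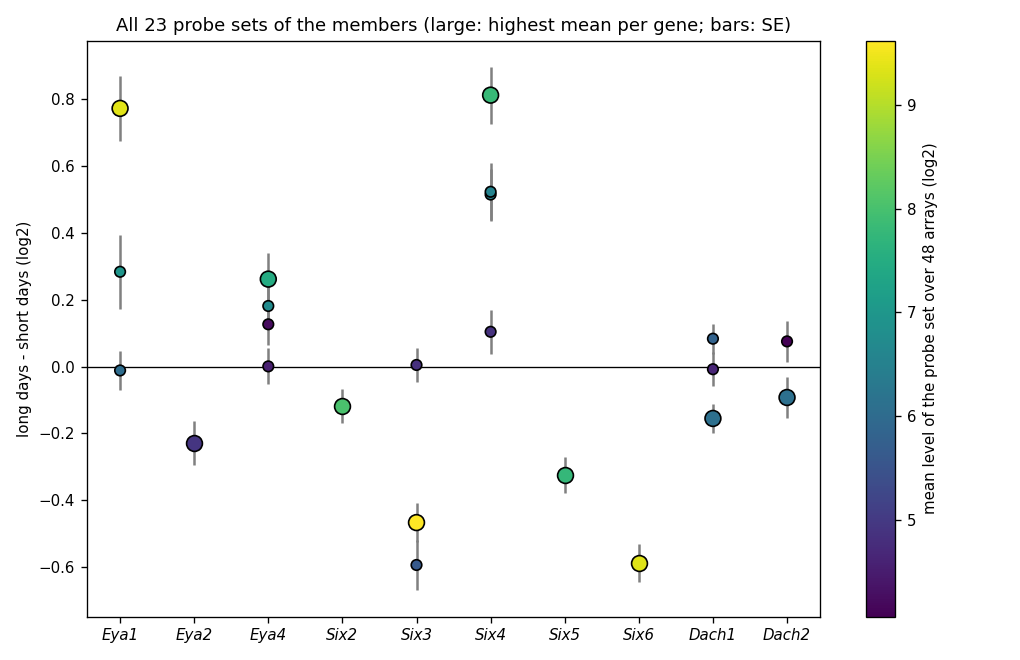
Long minus short days (log2, with SE) for all 23 probe sets of the members, coloured by mean level over 48 arrays, with the probe set of highest mean drawn large. The other probe sets of Six4, Eya1 and Eya4 lie between -0.01 and 0.52, and those of Six3 at -0.59 and 0.005.

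The other 13 probe sets were used as a check of the long-day differences. Six4 rose in 2 more of its probe sets, by 0.52 ± 0.09 and 0.51 ± 0.08 (adjusted p = 8.95e-06 and 1.61e-06), while the dimmest, of mean level 4.86, gave 0.10 ± 0.07 and did not pass. One other probe set of Eya1 passed with 0.28 ± 0.11 (adjusted p = 0.036), and the other, of mean level 6.04, gave -0.01 ± 0.06. For Eya4 one of the other probe sets passed with 0.18 ± 0.06 (adjusted p = 0.0178). A second Six3 probe set fell by 0.59 ± 0.08 (adjusted p = 1.18e-07), and the third, of mean level 4.84, gave 0.005 ± 0.05. Neither of the other Dach1 probe sets passed, with 0.08 ± 0.05 and -0.01 ± 0.05, so its fall rests on 1 probe set. With the mean of all its probe sets a gene's long-day difference was 0.35 for Eya1, 0.49 for Six4 and 0.14 for Eya4, which passed, and -0.03 for Dach1, which did not (adjusted p = 0.58). Six2, Six5, Six6 and Eya2 had no other. In the evening of the delay day the other Six3 probe sets gave 0.24 ± 0.17 and -0.23 ± 0.11, and neither passed.

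Genes that work with the members were read from lists of co-repressors, partners and targets, to be set beside the 17.6% of all genes that were higher, the 29.1% that were lower and the median of -0.03 over all genes. Of 6 measured TLE co-repressors, which SIX3 and SIX6 recruit, 4 were lower and none higher under long days, with a list median of -0.34: Tle2 fell by 0.64 ± 0.05 (adjusted p = 6.08e-12), Tle3 by 0.42 ± 0.04 and Tle6 by 0.28 ± 0.04. Tle2 was also lower ahead of the light, by 0.59 ± 0.06 (adjusted p = 5.35e-09). Of 6 measured co-repressor partners of DACH and SKI, Ski fell by 0.41 ± 0.05 (adjusted p = 5.46e-08) and Smad4, the shared SMAD, rose by 0.23 ± 0.04, and the others did not pass. Of 8 PAX genes, which sit above the network in the eye, Pax6 alone passed, with 0.23 ± 0.05 (adjusted p = 0.000723).

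Of 13 genes named as SIX-family or EYA targets in other tissues 3 rose and 3 fell under long days, with a median of 0.002. Shh, the hedgehog ligand of the head midline, rose by 0.51 ± 0.04 (adjusted p = 1.46e-11), Slc12a2, an ion cotransporter, by 0.30 ± 0.04, and Fshb, a gonadotropin subunit, fell by 0.93 ± 0.16 (adjusted p = 1.58e-05). Fshb is counted among the pars distalis markers as well. On that list Lhb (-0.59) and Gnrhr (-0.46) also passed as lower, and Prl (1.74) passed as higher. Of 12 head midline and pituitary transcription factors 6 rose and 2 fell, where 17.6% of all genes were higher and 29.1% lower. Rax, the homeobox factor of eye field and tanycytes, fell by 0.58 ± 0.07 and Lhx3, of the early pituitary, by 0.36 ± 0.06, while Pitx1 rose by 0.58 ± 0.08. Rax was lower by 0.52 ± 0.09 ahead of the light too (adjusted p = 1.13e-05).

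Markers of other cells also passed between the same groups, where, as above, 17.6% of all genes were higher and 29.1% lower under long days. Under long days 3 of 11 hypothalamic neuron markers were higher and 3 lower, with the mean of the list between 10.58 and 10.94 on long-day arrays and 10.61 and 11.08 on short-day arrays. Oxt, the oxytocin precursor, rose by 0.95 ± 0.09, while Slc32a1, the vesicular GABA transporter, fell by 0.72 ± 0.07 and Sst by 0.57 ± 0.07, and the last 2 were also lower ahead of the light, by 0.84 ± 0.08 and 0.99 ± 0.09. Of 7 ependymal markers 5 were lower and none higher, with list means of 7.42 to 7.67 on long-day arrays and 7.68 to 8.22 on short-day arrays. Of 7 astrocyte markers 2 were higher and 2 lower, with list means of 9.97 to 10.50 on long-day arrays and 10.14 to 10.67 on short-day arrays. Of 7 tanycyte markers 1 was higher and 3 lower (10.72 to 10.99 on long-day arrays and 10.67 to 11.16 on short-day arrays), and of 5 oligodendrocyte markers 1 was higher and 1 lower (10.08 to 10.54 on long-day arrays and 9.98 to 10.92 on short-day arrays). Pars distalis markers were 1 higher and 3 lower of 7, with list means of 7.28 to 9.62 on long-day arrays and 7.23 to 9.68 on short-day arrays. None of these markers lay below the first quartile on all arrays. Their part in the differences of the members was not tested. Without the 6 arrays with high Gh or Prl the long-day calls of the 7 members other than Eya4 held, and that of Eya4 did not (0.21, adjusted p = 0.0808).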

How the data were processed

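Each array measured total RNA of pars tuberalis punches pooled from 25 mice, labelled by the one-cycle Affymetrix procedure per the labels' protocols. The deposited values are log2 probe set summaries that the authors made with RMA in R 2.8.0, per the submitters' processing notes, so background correction and normalization came before deposit. Array medians lay between 6.98 and 7.03, and no pair of arrays was identical. Of 45101 probe sets, 34958 had a single gene symbol in the platform annotation, 932 several and 9211 none; a gene was represented by its single-symbol probe set with the highest mean, which gave 18194 genes. Limma 3.58.1 in R 4.3.3 fitted 1 coefficient per condition and ZT, 24 in all on 48 arrays (24 residual degrees of freedom), with variances moderated along a mean-variance trend. Tests were two-sided, with Benjamini-Hochberg adjustment over all genes and a threshold of 0.05. For arrays their number limits the precision. On simulated data, 92.5% of genes changed by 0.3 between long and short days were recovered among 18194 genes. Over the delay evening 19.4% of those changed by 0.3 and 89.6% of those changed by 0.6 were recovered. For the advance step only a change of 1.5 was simulated, and 99.5% were recovered. Unlike the data, the simulation changed a small share of genes, with independent noise. Recovery was not measured for the delay step or the day courses. Named were the 10 members, from each other list up to 3 passing genes with the smallest p per comparison, Eya3, Tshb and Cga, and for the 4 members of widest range the 2 genes of most similar course; only some are given. Members and lists were chosen with earlier results of these data known. Alternatives changed the variance trend, the replicate block, normalization, filter, choice of probe set and arrays used. Promoter windows are RefSeq's.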

Additional observations from a re-analysis of the deposited data

Results flagged for a closer look

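The change over the evening of the delay day differed from that under short days for Six6 by 0.48 ± 0.12 (0.4759, adjusted p = 0.0282) and for Six3 by 0.43 ± 0.13 (0.4291, adjusted p = 0.0442), in limma's test of the difference itself. Six6 was lost on leaving out any of 10 of the 48 arrays and Six3 on leaving out any of 17.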

How the results depend on the processing

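Leaving out each of the 48 arrays in turn gave 8 to 9 members passing for long minus short days, 7 in each case for first-day arrays ahead of the light minus short days, 1 to 4 for advance minus delay, 0 to 2 for the delay evening, 0 to 2 for the day course under short days, 0 to 1 for the difference of courses and 0 throughout for the remaining comparisons. The long-day calls of all 8 members, those ahead of the light of all 7, and that of Six6 in advance minus delay held in every such fit. In the delay evening 2 members passed, against 1 without the variance trend, 0 after quantile normalization, 1 with the mean of all probe sets, 0 with the actin ratio as a covariate, 0 without the 6 arrays with Gh or Prl above 10 and 0 for the delay day alone. The actin covariate left 1 member in advance minus delay. The actin covariate, the omission of the 6 arrays, the delay day alone and the comparison of long days with first-day arrays ahead of the light were chosen after seeing the data. In that comparison Eya1 (-0.30), Eya4 (-0.43) and Six3 (0.0447) turned sign against long minus short days. Centring arrays on their medians and dropping genes below the array median on all arrays lost no call of a member that entered the fit. Other probe sets turned sign for Eya1 (-0.0115), Six3 (0.0049) and Dach1 (0.0835) between long and short days, for Six3 over the delay evening (-0.2261) and for Dach1 in advance minus delay (-0.0271). The cause was not tested.

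Counts over all genes moved too. For the delay evening 1112 genes passed, against 54 after quantile normalization, 505 with the mean of all probe sets, 86 with the actin covariate, 56 without the 6 arrays, 497 for the delay day alone, and 1838 and 2389 with the replicate blocks over all arrays and within each condition. With the actin covariate 5006 genes against 8503 passed for long minus short days and 935 against 1593 for advance minus delay. The block within each condition gave 2838 against 1621 for the day course under short days, 736 against 470 in advance, 497 against 276 in delay and 1265 against 782 for the difference of courses, which was 85, with no member, when matched by clock time. Without the 6 arrays the courses gave 1022 under short days, 105 against 296 under long days and 311 for their difference. Without subtracting the short-day change 131 genes against 40 passed at the advance step, 114 against 0 later that day and 15 against 7 at the delay step, where the other settings gave 0 to 11; for the difference of the steps they gave 9 to 45 against 29. Leaving out single arrays gave 139 (short-day ZT4 replicate 1) to 2632 genes (its replicate 2) for the delay evening, 826 to 1843 for advance minus delay, 901 to 2765 for the short-day and 172 to 334 for the delay course, 499 to 1456 for the difference of courses, 18 to 334 for the advance step, 0 to 607 later that day, 0 to 12 for the delay step and 10 to 111 for the difference of the steps. The highest counts for the short-day course, the difference of courses, the advance step, the later advance day and the difference of the steps came without short-day ZT16 replicate 1.

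The replicate numbers are not stated to pair the groups. Differences between replicates 1 and 2 were compared between ZT: the median r was 0.24 for long-day arrays, 0.07 for advance, 0.27 for delay and 0.03 for short-day arrays, and not every pair exceeded 0.1. With a replicate block over all arrays 1 member, Eya4, passed in the day course under short days. With a replicate block within each condition 2 did, Eya4 and Six3, and 1, Eya4, in the difference of courses. Six2 passed for long minus short days with either block (-0.12, adjusted p = 0.0289 and 0.0266), and Eya1 for advance minus delay with the block within each condition (0.38, adjusted p = 0.0448). The blocks changed no other call of a member.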

Other observations

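The genes whose 24 group means ran most like those of the 4 members with the widest range were Golim4 and Chst15 for Eya1, Rasef and Itgb8 for Eya4, Rictor and Bet1 for Six4, and Lysmd2 and Timm8b for Six6. Likeness was Pearson's r over the 24 group means, which share arrays and conditions, and it is given as a description without a test. It was 0.97 for Golim4 and 0.96 for Chst15, and with the condition means taken out it was 0.67 and 0.73. For Lysmd2 and Six6 it was 0.96, and 0.79 with the condition means taken out. For Six4 it was 0.95 with Rictor and 0.94 with Bet1, and 0.53 and 0.44 with the condition means taken out.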
